A study of Mus musculus with 3072 samples.

Results

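The 6 integrin subunit genes described here are Itga2b, Itgb3, Itga6, Itgb1, Itga4 and Itgb2, chosen as the rows of the deposited count matrix that carry those symbols. All 6 were found among 55291 symbols. Bone marrow came from 8 wild-type C57BL/6 mice that carried transplanted, barcoded stem cells, and single cells of 3 sorted populations, called HSC, CFU and MkP in the labels with no full names, were profiled by Smart-seq2. The 4 control mice were sampled at week 32 after transplantation and the 4 platelet-depleted mice at week 28. Treatment, week and experiment code coincide in all 8 mice and cannot be told apart. The mouse was the replicate, and it was read from the first part of the sample titles, although no label states that this code stands for a mouse.

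Integrins are cell surface receptors made of an alpha and a beta subunit that bind extracellular matrix, plasma proteins and ligands on other cells, and whose affinity is raised from inside the cell by talin and kindlins. The product of Itga2b, CD41, pairs with that of Itgb3, CD61, to form the fibrinogen receptor of platelets and megakaryocytes, and CD41 is also found on part of the stem and progenitor cells. Itga6 (CD49f) is an alpha chain of laminin receptors, Itga4 (CD49d) pairs with Itgb1 (CD29) to form the receptor for VCAM-1 and fibronectin that is known for holding progenitors in the marrow, and Itgb2 (CD18) is the common beta chain of the leukocyte integrins.

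The promoters of 3 members were at hand from RefSeq (GRCm38.p6) and are shown because the genes differed in pattern: Itga2b was far lower in CFU than in HSC or MkP, and Itgb1 and Itga4 were not. Each is the 250 bases before the annotated start, on the strand of the gene. Capitals mark AGGAAG, the core of sites bound by ETS factors, or its reverse complement CTTCCT. The windows are chr11:102469884-102470133 on the minus strand for Itga2b, chr8:128685404-128685653 on the plus strand for Itgb1 and chr2:79255176-79255425 on the plus strand for Itga4.
Itga2b: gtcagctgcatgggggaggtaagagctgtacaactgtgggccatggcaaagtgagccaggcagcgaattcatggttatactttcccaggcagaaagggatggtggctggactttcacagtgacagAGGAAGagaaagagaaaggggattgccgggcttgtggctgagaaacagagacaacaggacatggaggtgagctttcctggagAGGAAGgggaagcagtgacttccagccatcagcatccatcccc
Itgb1: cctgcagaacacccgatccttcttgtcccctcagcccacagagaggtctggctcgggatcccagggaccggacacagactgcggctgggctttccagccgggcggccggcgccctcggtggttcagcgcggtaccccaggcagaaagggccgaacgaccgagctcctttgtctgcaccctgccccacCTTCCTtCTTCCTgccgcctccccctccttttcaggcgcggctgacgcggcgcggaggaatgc
Itga4: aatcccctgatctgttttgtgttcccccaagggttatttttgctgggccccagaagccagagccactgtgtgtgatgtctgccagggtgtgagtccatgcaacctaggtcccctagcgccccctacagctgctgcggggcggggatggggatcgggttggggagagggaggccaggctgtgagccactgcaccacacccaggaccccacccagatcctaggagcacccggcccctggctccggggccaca

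The Itga2b window held AGGAAG at 125 and 43 bases before the start, and the Itgb1 window held CTTCCT at 63 and 56 bases before it, counted at the first base of the match. The Itga4 window held neither. The motif, on either strand, was present in 29.5% of 32851 RefSeq promoter windows of the same length. Neither AGATAA, the core of GATA factor sites, nor TATAAA was found on either strand of the 3 windows. AGATAA was present in 9.99% of all windows and TATAAA in 12.4%. The Itga2b window held 54% G and C with 2 CG pairs, against 68% with 21 pairs for Itgb1 and 64% with 6 pairs for Itga4. The median of all windows was 52.4%.

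After a filter on counts, genes and mitochondrial share, 2668 of 3069 cells were kept. Their counts were added per mouse and population, giving 24 sums of 68792249 to 327869432 counts. The populations carried the marker genes of different lineages. The summed level of 8 HSC markers, among them Procr and Mecom, was 618 to 1281 CPM in the HSC sums, 115 to 199 in MkP and 3.62 to 7.38 in CFU. That of 8 megakaryocyte markers, among them Pf4 and Gp9, was 2842 to 5182 CPM in MkP, 1211 to 1829 in HSC and 15.1 to 28.7 in CFU. That of 8 erythroid markers, among them Klf1 and Epor, was 6171 to 8719 CPM in CFU, 445 to 889 in MkP and 63 to 339 in HSC. No source used here names the antibodies of the sort. If CD41 or another member was part of a gate, its order between populations is partly set by the sort.

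Itga2b had levels that were far apart in the 3 populations. Levels below are CPM, the counts of a sum divided by its total on edgeR's TMM scale, with the lowest, median and highest of 8 mice. Itga2b stood at 126, 234 and 283 CPM in HSC, at 1.58, 3.68 and 8.70 in CFU, and at 1113, 1269 and 1475 in MkP. The 3 ranges did not overlap, and every one of the 8 mice had the order MkP, HSC, CFU. Itgb3, its partner, had the same order: 64.7, 107 and 138 CPM in MkP, 29.9, 40.1 and 93.6 in HSC, and 0.0432, 0.0720 and 0.908 in CFU. Here the HSC and MkP ranges overlapped, although MkP was above HSC in 8 of 8 mice, and CFU lay below both.

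Itga6, the laminin receptor chain, was at 55.9, 82.7 and 106 CPM in MkP, 41.7, 55.3 and 94.8 in HSC, and 2.53, 6.64 and 12.3 in CFU. Its HSC and MkP ranges overlapped, and its CFU range lay below them. Itgb2, the leukocyte beta chain, was at 76.5, 97.6 and 125 CPM in MkP, 37.2, 52.4 and 68.2 in HSC, and 3.99, 13.3 and 24.2 in CFU, in 3 ranges that did not overlap. The highest CFU value, of control mouse 3, stood beside a sum of 5 neutrophil markers of 3014 CPM, against 0 to 93.9 in the other 7 CFU sums, and their part in it was not tested. The 2 subunits of the VCAM-1 receptor had another pattern. Itgb1 was at 233, 256 and 276 CPM in CFU, 184, 226 and 251 in MkP, and 144, 192 and 247 in HSC. Itga4 was at 90.5, 117 and 150 CPM in CFU, 66.4, 93.6 and 109 in MkP, and 44.6, 67.3 and 101 in HSC. For both, neighbouring populations overlapped, and CFU was above HSC in 8 of 8 mice.

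**Figure D1:**
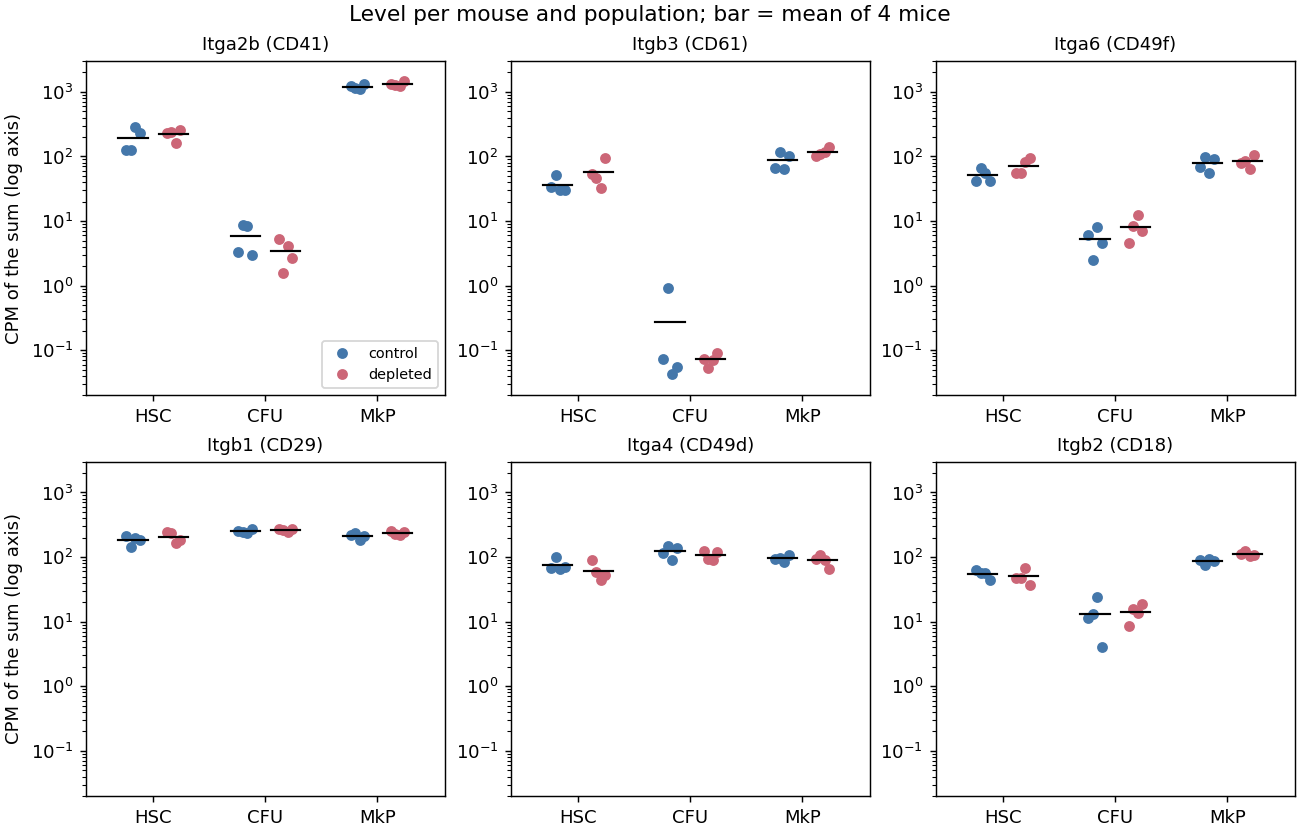
Level of each integrin gene in CPM (log axis) for the sums of 4 control and 4 depleted mice in HSC, CFU and MkP; each point is 1 mouse and each bar the mean of 4. Itga2b, Itgb3, Itga6 and Itgb2 are lowest in CFU, while Itgb1 lies between 144 and 276 CPM and Itga4 between 44.6 and 150 CPM over all 3 populations.

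To set the levels of different genes side by side, they were divided by kilobases of exon. On that scale of CPM per kilobase, median Itga2b in MkP was 233, followed there by Itgb1 at 55.3, Itgb2 at 32.0, Itgb3 at 18.1, Itga6 at 9.16 and Itga4 at 6.70. The alpha chain CD41 thus had more reads per base than its beta partner in MkP, with 204 to 271 for Itga2b against 11 to 23.4 for Itgb3. In HSC the medians were 46.9 for Itgb1 and 42.9 for Itga2b, with overlapping ranges of 35.3 to 60.5 and 23 to 51.9, then 17.2 for Itgb2, 6.79 for Itgb3, 6.12 for Itga6 and 4.81 for Itga4. In CFU Itgb1 stood at 62.7 and Itga4 at 8.39. The other 4 members had medians of 4.36 for Itgb2, 0.736 for Itga6, 0.675 for Itga2b and 0.0122 for Itgb3. The length used covers all annotated exons of a gene, 13.978 kb for Itga4 and 9.025 kb for Itga6, and the order depends on it. Before the division, median Itga4 in MkP was above Itga6, at 93.6 against 82.7 CPM. Which transcripts were expressed was not tested.

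In MkP against HSC, 3 of 6 members rose and none fell at an adjusted p under 0.05 (quasi-likelihood test of edgeR, Benjamini-Hochberg adjusted over 19573 genes). Of all genes tested, 17.4% were called higher in MkP and 13.6% lower. Itga2b was higher by 2.6 on the log2 scale (SE 0.28, adjusted p = 2.04e-07), Itgb2 by 0.90 (SE 0.23, adjusted p = 0.00391) and Itga4 by 0.44 (SE 0.14, adjusted p = 0.0187). Itgb3 had a log2 difference of 1.14 (SE 0.45, adjusted p = 0.0562), Itga6 of 0.44 (adjusted p = 0.142) and Itgb1 of 0.20 (adjusted p = 0.0736). With the mouse as a replicate block, Itgb3 (1.21, adjusted p = 0.0135) and Itgb1 (0.21, adjusted p = 0.0469) also passed, for 5 of 6. Without control mouse 2, whose Itgb3 level is the highest of the control group in each population, the adjusted p of Itgb3 was 5.52e-05, and without depleted mouse 4 it was 0.0497. Itga4 did not pass without control mouse 1, control mouse 4, depleted mouse 2 or depleted mouse 3 (adjusted p = 0.0556 to 0.0734).

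In CFU against HSC all 6 members were called, 4 lower and 2 higher. The shares of all genes were 36.1% lower and 28.8% higher, with a median log2 difference over all genes of -0.23. On the log2 scale the differences were -8.09 for Itgb3 (SE 0.62, adjusted p = 6.46e-11), -5.51 for Itga2b (SE 0.32, adjusted p = 4.59e-13), -3.20 for Itga6 (SE 0.24, adjusted p = 3.55e-11) and -1.95 for Itgb2 (SE 0.24, adjusted p = 1.28e-07). Itga4 rose by 0.75 (SE 0.14, adjusted p = 5.47e-05) and Itgb1 by 0.39 (SE 0.08, adjusted p = 0.000239). On the scale of the whole sum without TMM, Itga4 kept its direction, with medians of 96.7 CPM in CFU and 71.9 in HSC, and Itgb1 was at 215 and 212 CPM.

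In CFU against MkP, 4 of 6 members fell and none rose. Of all genes 31.8% were lower and 23.5% higher, with a median of -0.21. The differences were -9.23 for Itgb3 (SE 0.65, adjusted p = 2.70e-11), -8.11 for Itga2b (SE 0.36, adjusted p = 1.23e-14), -3.64 for Itga6 (SE 0.24, adjusted p = 1.15e-11) and -2.85 for Itgb2 (SE 0.24, adjusted p = 7.43e-10). Itgb1 had 0.19 (adjusted p = 0.0522) and Itga4 0.31 (adjusted p = 0.0614). Both passed with the mouse as a replicate block (adjusted p = 0.0465 and 0.0351). Itgb1 also passed without control mouse 2 (0.0313) or depleted mouse 3 (0.0460), and Itga4 without depleted mouse 2 (0.0350) or depleted mouse 3 (0.0419), by adjusted p in edgeR. Without TMM their medians had the opposite order, with 215 CPM in CFU against 246 in MkP for Itgb1 and 96.7 against 102 for Itga4.

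Control mouse 2 held most of the Itgb3 reads of the CFU population. Its CFU sum was at 0.908 CPM, and the other 7 were at 0.0432 to 0.0912. A single cell gave 30.04% of all Itgb3 counts in CFU. Without that mouse the log2 difference of Itgb3 was -9.40 against HSC and -10.57 against MkP. In the same CFU cells of that mouse, Pf4, a platelet chemokine, was detected in 54.2%, the highest share of the 8 mice (lowest 12.5%), and its summed megakaryocyte markers were at 28.7 CPM against 15.1 to 21.1 in the other CFU sums. The part of these reads in the Itgb3 value was not tested.

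Single HSC differed widely in Itga2b. Of 697 HSC, 13.3% had no Itga2b count and 9.47% had a level over 0 and under 1 CPM of the whole cell. A further 29.4% had 1 to 10 CPM, 9.90% had 10 to 100, 34.1% had 100 to 1000 and 3.73% had 1000 or more. The class of 10 to 100 CPM thus held fewer HSC than the classes on either side of it. Of 1324 MkP, 57.3% had 1000 CPM or more and 36.3% had 100 to 1000. Of 647 CFU, 20.4% had no count and 42.7% had a level over 0 and up to 1 CPM. Only 6 CFU reached 100 CPM, and the 10 cells with the most reads held 42% of all Itga2b counts of CFU.

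For Itgb3 the share of cells with 100 CPM or more was 34.7% in MkP and 19.1% in HSC, and no CFU reached that level. For Itgb1, 74.2% of MkP, 83.5% of CFU and 62% of HSC had 100 CPM or more.

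**Figure D2:**
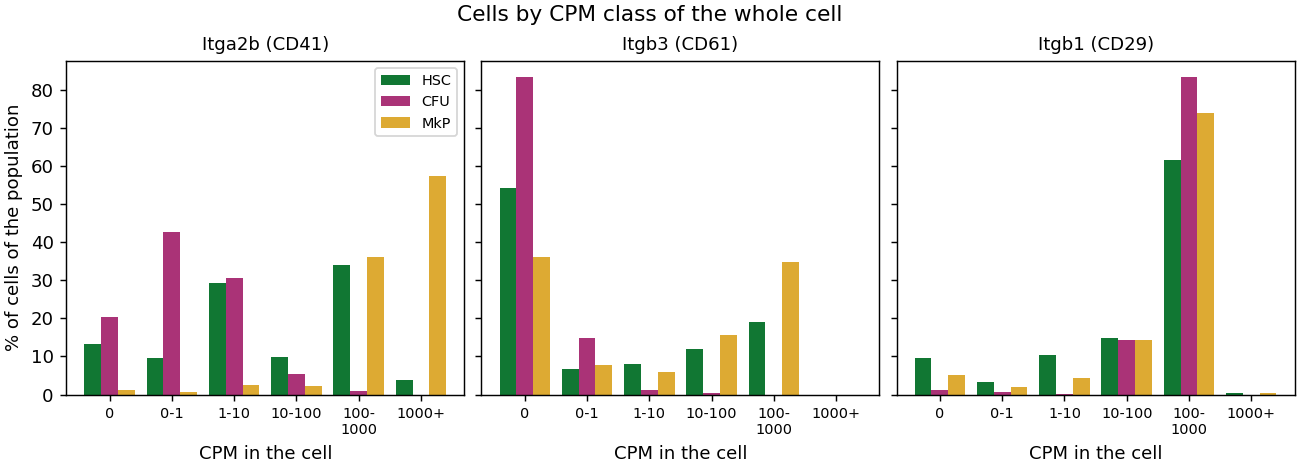
Share of the cells of each population (y axis, percent) in 6 classes of CPM of the whole cell (x axis) for Itga2b, Itgb3 and Itgb1. For Itga2b, 57.3% of MkP lie in the top class, and HSC have separate high shares at 1 to 10 and at 100 to 1000 CPM.

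Detection was compared after each cell was thinned to 100000 counts, which left 691 HSC, 646 CFU and 1319 MkP. Itga2b had a count in 96.3% of MkP, 56% of HSC and 13.5% of CFU. Itgb3 was detected in 51.9% of MkP, 33.6% of HSC and 1.55% of CFU, which is 10 of 646 cells. Without thinning, at median depths of 1319672 to 2425929 counts per cell in the 6 groups of population and treatment, Itga2b had a count in 98.9% of MkP, 86.7% of HSC and 79.6% of CFU. As a background, Procr, a stem cell receptor, was seen in 67.1% of HSC and in 0 of 646 thinned CFU, which allows a share of up to 0.464% at that depth. Without thinning Procr had a count in 8.04% of CFU. The platelet genes Pf4 and Gp9 were seen in 24.6% and 26.6% of CFU. The Itga2b share in CFU was thus below those of the other platelet genes, and it is not read here as expression.

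Itga6 was detected in 63.5% of thinned MkP, 51.1% of HSC and 14.2% of CFU, and Itgb2 in 55.3%, 30.7% and 24.3%. For the VCAM-1 receptor CFU had the highest shares and HSC the lowest. Itgb1 was detected in 97.7% of CFU, 89.8% of MkP and 79.9% of HSC, and Itga4 in 94.6%, 69.6% and 63.1%. The median number of genes per thinned cell was 5911 to 6367 over the mice in CFU, 4214 to 5342 in MkP and 3860 to 4966 in HSC, so CFU cells spread the same number of counts over more genes.

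**Figure D3:**
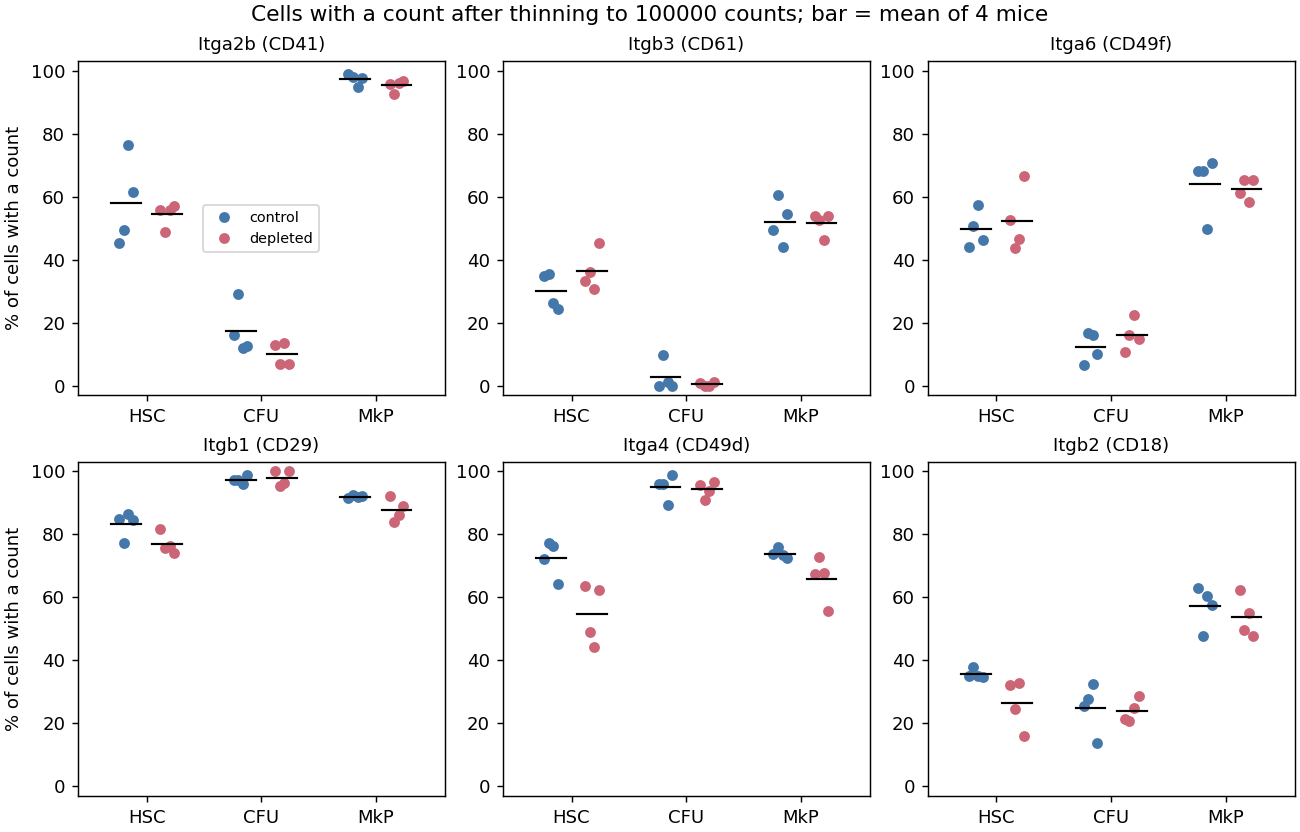
Percent of cells with at least 1 count after thinning to 100000 counts, for each of 8 mice (points; bar, mean of 4) by population and treatment. Itga2b lies between 92.5% and 98.8% in MkP, and Itga4 in HSC lies lower in the 4 depleted mice than in the 4 control mice.

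Cells often carried several members. Of 1319 thinned MkP, 13.6% had a count of all 6 members and 0 had none. Of 691 HSC, 3.47% had all 6 and 1.59% had none. Of 646 CFU, 0 had all 6, and 54.5% had exactly 2.

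In MkP the 2 subunits of the fibrinogen receptor went together from cell to cell. Of the 685 MkP with an Itgb3 count, 682 also had an Itga2b count. The ratio of the observed share of double-positive cells to the product of the 2 single shares had a median of 1.03 over mice (range 1.01 to 1.08, over 1 in 8 of 8). Since 96.3% of MkP had an Itga2b count, this ratio could not go far above 1. The rank correlation of thinned counts was computed within each mouse, over 157 to 182 cells. Its mean Spearman's rho was 0.47 (range 0.42 to 0.51 over 8 mice). In HSC, where 142 of 691 cells had both, the ratio had a median of 1.15 (range 0.96 to 1.26, over 1 in 6 of 8 mice), and the mean rho was 0.10 (range -0.10 to 0.22).

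Itga4 ran the other way in MkP. Its mean rho was -0.26 with Itga2b (range -0.42 to -0.09), -0.23 with Itgb3 (range -0.31 to -0.11) and -0.19 with Itgb1 (range -0.28 to -0.14), below 0 in 8 of 8 mice for each. The ratio for Itgb3 with Itga4 had a median of 0.906 and was over 1 in 0 of 8 mice. In HSC the rho of Itga4 with Itga2b ran from -0.16 to 0.09 and was above 0 in 4 of 8 mice. Itga4 and Itgb1, which together form a receptor, had a mean rho of 0.01 in HSC and 0.11 in CFU, where 7 of 8 mice were above 0.

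Of the 15 pairs in each population, 4 had more double-positive cells than the product of the shares in all 8 mice: Itga2b with Itgb3 and with Itga6 in MkP, and Itgb2 with Itga2b and with Itga6 in HSC. Without thinning, 0 pairs did, but the Itga2b pairs of MkP and HSC could not. There Itga2b had a count in 100% of MkP in control mice 1 and 2 and depleted mouse 3. The same held for HSC of control mouse 4. In such a mouse the double-positive share equals the product. Only Itga2b with Itgb3 in MkP was above the product in all 8 mice at each of the 3 thinned settings tried. The settings were 100000 counts, 20000 counts, and 100000 counts with at least 3 counts of a gene. For Itga2b with Itgb2 in HSC the median ratio was 1.2 (range 1.03 to 1.40). These shares are counted within a mouse, whose cells are not independent replicates. The labels used here do not state whether the cells of a mouse and population came from 1 sort. Differences between plates within a mouse were not tested.

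**Figure D4:**
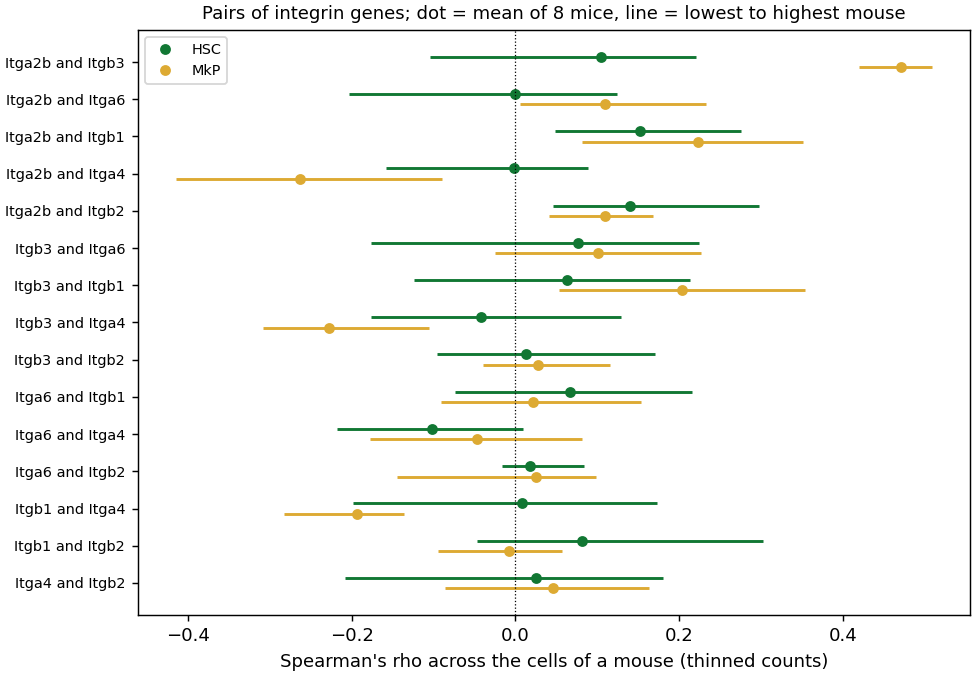
Spearman's rho of each pair of integrin genes across the thinned cells of a mouse (x axis), in HSC and MkP; dots are the mean of 8 mice and lines run from the lowest to the highest mouse. Itga2b and Itgb3 in MkP lie at 0.42 to 0.51, and Itga4 lies below 0 with Itga2b, Itgb3 and Itgb1.

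Cells were also ranked by Itga2b within each mouse, and the lowest and highest tertiles were compared as ranges of one score, with no test. In MkP, with 436 cells in each tertile, the median Itga2b level was 421 CPM in the lowest tertile and 2197 in the highest. Itgb3 was detected in 23.9% of the lowest (range 19.2% to 40.4% over mice) and 77.5% of the highest (71.2% to 86.5%), and Vwf, the von Willebrand factor that platelets bind, in 27% and 82.6%. Itga4 was detected in 81.1% of the lowest (range 66.7% to 91.2%) and 57.7% of the highest (41.7% to 76.9%), and Klf1, an erythroid transcription factor, in 55.6% and 23.1%, both lower in the highest tertile in 8 of 8 mice. Counts per cell were also higher in the highest tertile in 7 of 8 mice, with medians of 1882564.5 against 1553967.5.

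In HSC, with 228 cells in each, the lowest tertile had a median Itga2b level of 0.44 CPM and the highest of 394. Procr was detected in 77.2% of the lowest tertile (range 73.1% to 93.5%) and 46.8% of the highest (11.5% to 53.8%), lower in the highest in 8 of 8 mice. Gp9, a subunit of the receptor for von Willebrand factor, was detected in 35% and 59.7%, Pf4 in 45.6% and 73.7%, and Itgb2 in 22% and 43.8%, each higher in the highest tertile in 8 of 8 mice. Vwf was detected in 41.9% and 50.8%, higher in the highest tertile in 3 of 8 mice. Itga6 stood at 49.9% and 49.1%. Klf1, which was lower in the highest tertile of MkP, was detected in 10.2% and 17.3% of HSC, higher in the highest in 6 of 8 mice. Genes per thinned cell were higher in the highest tertile in 8 of 8 mice, with medians of 4513 against 4254. The part of that difference in the shares was not tested.

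Of all genes counted in at least 20% of the cells, those with the highest mean rho with Itga2b in MkP were Pf4 at 0.68, Tmsb4x, an actin-binding peptide, at 0.64 and Plek, a platelet signalling protein, at 0.63. For Itgb3 they were Pf4 at 0.56, Tmsb4x at 0.54 and the tetraspanin Cd9 at 0.49. For Itga4 they were Plac8 at 0.32, Apoe at 0.28 and Mc5r at 0.27. In HSC, Itga2b was most like Mfsd2b at 0.41, Tuba8 at 0.41 and Cdk6, a cell cycle kinase, at 0.38. The highest values were 0.23 for Itgb1 (Tmsb4x), 0.17 for Itga6 (Cd9) and 0.18 for Itgb2 (Cotl1) in MkP. In HSC the highest value of the other 5 members was 0.23, for Itgb3 with Clca3a1.

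Across the 24 sums, which share 8 mice and fall into 3 populations, the gene most like Itga2b among 8923 was Treml1, a platelet granule receptor, with Pearson's r of 0.988 for log2 CPM. It was followed by Robo3 at 0.988 and Pde10a at 0.985. Itgb3 was most like Cavin2 at 0.993, Rbpms2 at 0.991 and Gucy1a1 at 0.990, and Itga6 like Fli1, an ETS factor of megakaryocytes, at 0.974, Muc13 at 0.973 and Dach1 at 0.972. Itgb2 was most like Cd9 at 0.967, Clic1 at 0.965 and Tmsb4x at 0.964. Itgb1 was most like Sp3 at 0.932, Ddx59 at 0.864 and Eif3b at 0.859, and Itga4 like Cdc27 at 0.850 and Gins3 at 0.840. Between members, r was 0.963 for Itga2b with Itgb3 and 0.561 for Itgb1 with Itga4. These values follow mainly the order of the 3 populations, which all genes of one pattern share.

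With platelet depletion, no member passed the threshold in edgeR, and DESeq2 called 1, Itgb2 in MkP. In HSC, edgeR and DESeq2 each called 0 of 6 members between depleted and control mice, and 0 members had a raw p below 0.05 in edgeR. Of all 17146 genes tested, edgeR called 0, a share of 0% (raw p below 0.05 in 1467; DESeq2 called 267). Itga2b was at 126, 127, 283 and 235 CPM in the 4 control mice and 233, 241, 163 and 261 in the 4 depleted mice. The 2 groups overlapped, and the log2 difference was 0.21 (95% interval -0.38 to 0.81, adjusted p = 0.869). Within the control HSC, mice 3 and 4, the higher in Itga2b, had summed HSC markers of 618 and 639 CPM against 997 and 1281 in mice 1 and 2, and mouse 4 had summed erythroid markers of 339 CPM against 63 to 98.3 in the other control mice; their part in the Itga2b values was not tested. Itgb3 was at 33.4, 51.3, 29.9 and 30.5 CPM in control and 53.6, 46.8, 32.1 and 93.6 in depleted mice, overlapping as well, with 0.61 (-0.11 to 1.34, adjusted p = 0.627).

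Itga6 in HSC was at 41.9, 65.9, 54.7 and 41.7 CPM in control and 54.5, 55.8, 80.8 and 94.8 in depleted mice, with a log2 difference of 0.47 (95% interval -0.05 to 0.99, adjusted p = 0.609). Itga4 was at 68.4, 101, 66.1 and 70.1 CPM in control and 88.7, 59.7, 44.6 and 52.5 in depleted mice, with -0.34 (-0.86 to 0.19, adjusted p = 0.721). For both, the mice of the groups overlapped. Itgb1 had 0.15 (-0.21 to 0.51) and Itgb2 -0.15 (-0.61 to 0.31).

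In MkP edgeR called 0 of 6 members and 2 of 18512 genes (0.0108%). A raw p below 0.05 was found for 2 members and for 2532 of all genes (13.7%). DESeq2 called 1 member, Itgb2, and 955 genes. Itgb2 was at 90.1, 76.5, 92.6 and 88.2 CPM in the control mice and 111, 125, 102.7 and 108 in the depleted mice. It was the only member whose groups did not overlap in the level, and all 4 depleted mice were above all 4 control mice. In MkP the levels of 9.83% of 12742 genes with a mean of at least 1 CPM had no overlap between treatments, in either direction. Its log2 difference was 0.38 (SE 0.09, 95% interval 0.17 to 0.59, p = 0.00258, adjusted p = 0.177 in edgeR and 0.00954 in DESeq2). Over the other alternatives run in edgeR its adjusted p was 0.168 to 0.840. The highest value, of depleted mouse 2, stood beside a sum of 5 mast cell and basophil markers of 814 CPM, against 19.6 to 67.8 in the other 7 MkP sums. Without that mouse the difference was 0.32 (adjusted p = 0.288).

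Itga2b in MkP was at 1221, 1157, 1113 and 1314 CPM in control and 1339, 1282, 1255 and 1475 in depleted mice. The groups overlapped by 1 control mouse, and the log2 difference was 0.17 (95% interval 0.01 to 0.34, adjusted p = 0.351). Itgb3 was at 67.2, 118, 64.7 and 103.1 CPM in control and 101, 110, 118 and 138 in depleted mice, overlapping, with 0.42 (-0.03 to 0.86, adjusted p = 0.400). Itgb1 had 0.17 (-0.03 to 0.37), Itga6 0.10 (-0.36 to 0.57) and Itga4 -0.07 (-0.39 to 0.26). The summed megakaryocyte markers of MkP ran from 3306 to 5182 CPM over the control mice and from 2842 to 3396 over the depleted mice.

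In CFU edgeR and DESeq2 called 0 of 6 members, 0 had a raw p below 0.05 in edgeR, and DESeq2 gave no adjusted p for Itgb3. Of all 15661 genes edgeR called 0, or 0% (raw p below 0.05 in 1857; DESeq2 called 472). Itgb1 was the most narrowly measured, with 233 to 276 CPM among controls and 243 to 274 after depletion, with a log2 difference of -0.01 (95% interval -0.18 to 0.17). Itga4 had -0.27 (-0.65 to 0.11), Itga6 0.54 (-0.38 to 1.47) and Itgb2 0.04 (-0.98 to 1.07). Itga2b, with 3.01 to 8.70 CPM among controls and 1.58 to 5.36 after depletion, had -0.81 (-1.93 to 0.31), and Itgb3 -1.93 (-4.26 to 0.39). Without control mouse 2 the Itgb3 value was 0.26.

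**Figure D5:**
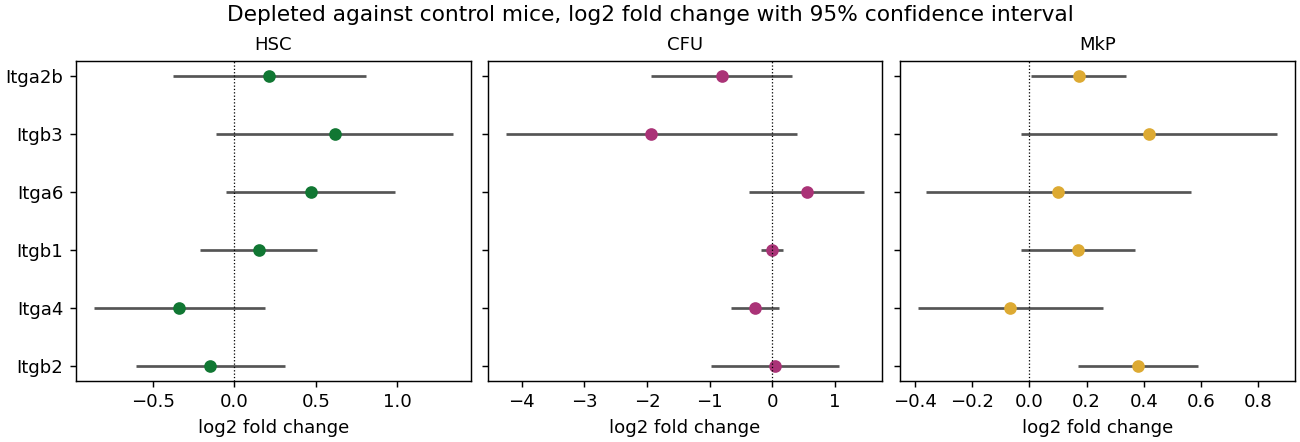
Log2 fold change of depleted against control mice for each integrin gene (dots) with its 95% confidence interval (lines) in HSC, CFU and MkP; 4 mice per group, and the x axes of the 3 panels differ. Only Itgb2 and Itga2b in MkP have intervals that leave out 0, and no member passed the adjusted threshold in edgeR, whose fits are plotted.

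An interaction term tested whether the effect of depletion depended on the population. For MkP against HSC, CFU against HSC and CFU against MkP, both edgeR and DESeq2 called 0 of 6 members, and 0, 1 and 1 members had a raw p below 0.05 in edgeR. Of 20852 genes edgeR called 0.0144%, 0% and 0% (3, 0 and 0 genes; raw p below 0.05 in 1261, 1887 and 1229; DESeq2 called 315, 587 and 457). The lowest p among members was for Itgb3 in CFU against HSC, with -2.56 (SE 0.90, p = 0.00966, adjusted p = 0.369). Without control mouse 2 this value was -0.51.

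Detection of 2 members in HSC separated the treatment groups. Itga4 was detected in 72.1%, 77.2%, 76.2% and 64.1% of thinned HSC in the control mice and 63.4%, 48.9%, 44.3% and 62.4% in the depleted mice, and Itgb2 in 34.9%, 38%, 35% and 34.6% against 32.3%, 24.5%, 33% and 16.1%. For these 2 members all depleted mice were below all control mice. This was so, in either direction, for 10.3% of 12008 genes in HSC. No member was without overlap in CFU, where 4.29% of 10907 genes were, or in MkP, where 18.1% of 11591 genes were. Genes per thinned HSC were 4464 to 4966 in control and 3860 to 4280 in depleted mice, and those per thinned MkP 4907 to 5342 and 4214 to 4772, so that all depleted mice had fewer genes per cell. The part of this in the shares was not tested. With at least 3 counts required, no member was without overlap.

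Of the 20 other integrin subunits, 16 passed the filter on low counts for the population contrasts. In MkP against HSC, 2 were called higher and 1 lower, where 17.4% and 13.6% of all genes were. Itgal, the alpha chain of LFA-1 that pairs with Itgb2, rose by 2.84 (SE 0.88, adjusted p = 0.0166) with a mean of 31.3 CPM in MkP against 4.26 in HSC. In CFU against HSC, 1 rose and 9 fell, where 28.8% and 36.1% of all genes did. The one that rose was Itga5, the alpha chain of the fibronectin receptor with Itgb1, by 0.73 (SE 0.16, adjusted p = 0.000246), with means of 107 CPM in CFU and 63.9 in HSC. Itgav, an alpha chain that also pairs with Itgb3, fell by 3.17 (SE 0.39, adjusted p = 1.51e-07). In CFU against MkP, 0 rose and 11 fell (23.5% and 31.8% of all genes), and 12 had a raw p below 0.05. There DESeq2 also called 0 higher and 11 lower. A gene that passed the filter only through HSC or MkP could only fall in CFU. The falls counted in CFU, here and in the lists below, can thus be partly set by the filter.

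Genes of integrin activation, the talins, kindlins, Rap1 and adaptor proteins, were called in both directions. Of 31 tested, 16 rose and 5 fell in MkP against HSC (17.4% and 13.6% of all genes), with a median of 0.38 against 0.01 for all genes. Rap1b, a small GTPase of platelet integrin activation, rose by 2.09 (SE 0.18, adjusted p = 1.02e-08), Lims1 by 1.59 (SE 0.13) and vinculin, Vcl, by 1.34 (SE 0.13), while the focal adhesion kinases Ptk2 and Ptk2b fell by 1.81 (SE 0.32) and by 1.04 (SE 0.11). In CFU against HSC 8 rose and 17 fell (28.8% and 36.1% of all genes), with a median of -0.67. Cib1, which binds the tail of CD41, rose by 1.35 (SE 0.10, adjusted p = 1.82e-11), and Zyx, an adhesion protein, fell by 4.76 (SE 0.33, adjusted p = 1.04e-11). In CFU against MkP 4 rose and 18 fell (23.5% and 31.8% of all genes), with a median of -1.19. There Rasgrp2, the exchange factor that activates Rap1 in platelets, fell by 4.83 (SE 0.70, adjusted p = 2.76e-06).

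Of 20 genes of integrin ligands, 12 were tested, and the shares of all genes are those just given. In MkP against HSC 0 rose and 4 fell, among them Icam1, a ligand of LFA-1, which fell by 1.76 (SE 0.65, adjusted p = 0.0404). In CFU against HSC 0 rose and 11 fell, and in CFU against MkP 0 rose and 12 fell. The filter on low counts also passed genes through their level in HSC or MkP alone. Col4a1 had means of 16.9 CPM in HSC, 3.49 in MkP and 0.0161 in CFU. Such genes could only fall in CFU, so the CFU counts are not read here as a result about ligands. The ligand genes with a raw p below 0.05 numbered 5, 11 and 12 in the 3 contrasts, and DESeq2 called 0 higher in each and 5, 11 and 12 lower. Vwf fell by 3.83 (SE 0.28) and by 4.20 (SE 0.29) in these contrasts, with means of 142 CPM in HSC, 9.93 in CFU and 182 in MkP. No gene of the 3 lists was called between depleted and control mice in any population by edgeR. A raw p below 0.05 in HSC was found for 1 of 13 subunits, 2 of 30 activation genes and 1 of 11 ligands. The share of all genes there was 8.56%. In CFU it was found for 0 of 5, 5 of 28 and 0 of 4, where 11.9% of all genes had one. In MkP it was found for 2 of 15, 6 of 28 and 0 of 11, where 13.7% of all genes did. DESeq2 called 0 subunits and 0 ligands in any population. Of the activation genes it called 0 in HSC, 1 higher and 2 lower in CFU, and 4 higher and 1 lower in MkP. Of all genes it called 267 of 17146 in HSC, 472 of 15661 in CFU and 955 of 18512 in MkP.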

How the data were processed

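Single cells of 3 sorted marrow populations were sequenced as Smart-seq2 libraries, which carry no molecular identifiers, so the limit given for a count of 0 covers counting error only. The deposited matrix holds raw read counts per gene symbol and well. Per the submitters' processing notes the tools were Trim Galore 0.5, STAR 2.6.0 and HTSeq 0.6.1; no source used here names the genome build or the annotation. All 170025669 values of the 3069 columns used were tested and were whole and not negative; 1 column matched no title and was not used. Counts of 107 symbols that stand on more than 1 row were added.

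Cells entered with at least 20000 counts, 1000 genes and at most 20% mitochondrial counts. Their counts were summed per mouse and population. Tests used edgeR 4.0.16 (quasi-likelihood, TMM, filterByExpr; R 4.3.3) with Benjamini-Hochberg adjustment over all genes tested, called under 0.05, and were tested on simulated data. Population contrasts and interactions used all 24 sums, treatment contrasts the 8 sums of a population. DESeq2 1.42.0, no filter on low counts, other sets of sums, a stricter cell filter, thinned cells, a replicate block and leaving out each mouse were alternatives. The block rests on the mouse code, since each mouse gave all 3 populations; deviations of sums of 1 mouse correlated at 0.02 to 0.08. CPM per kilobase used the exon union of GENCODE M21. The labels do not state that samples of a group were prepared independently, so p-values of treatment contrasts measure only the spread between these mice. Those of population contrasts and interactions measure the spread of the 24 sums about the fit. Outside the replicate block, these fits had no term for the mouse.

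The members and lists were chosen with earlier results of these data known. The members are named in every comparison. From each list, the genes named come from the 3 called genes with the largest log2 fold change in each direction and a mean of at least 5 CPM. Genes of like pattern are the 3 with the highest correlation, among genes of at least 10 CPM over the sums or with a count in at least 20% of cells; 1 such gene is not reported here. The genes whose detection is given beside the members (Pf4, Vwf, Procr, Klf1 and Gp9) and the Itga2b tertiles were chosen after values had been seen. Marker lists of 11 cell types were summed; besides the 3 printed in the results, the highest sums were 3014 CPM of 5 neutrophil genes and 1120 CPM of 5 myeloid genes in CFU, 814 CPM of 5 mast and basophil genes in MkP, and 480.0 CPM of 4 T and NK genes in MkP. Other lists (B cell, lymphoid progenitor, macrophage, endothelial) reached at most 289 CPM in any sum.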

Additional observations from a re-analysis of the deposited data

Results flagged for a closer look

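In groups of 4 mice, a mouse stood far from the other 3, by Dixon's criterion, in 7 of 72 groups of member values, and chance gives about 1 in 20. The groups are not independent. Each gene, population and treatment entered as a level and as a detection share, and each mouse gave all 3 populations. No excess over chance is therefore read from the 7. Control mouse 2 gave 5 of the 7. Its Itgb3 level was 51.3 CPM in HSC, against 29.9 to 33.4 in the other control mice, and 0.908 CPM in CFU, against 0.0432 to 0.0730. Its share of thinned CFU with an Itgb3 count was 9.72%, against 0% to 1.35%. Its Itga4 level in HSC was 101 CPM, against 66.1 to 70.1. Its share of HSC with an Itgb2 count was 38%, against 34.6% to 35%. Depleted mouse 2 had Itga2b in 48.9% of thinned HSC, against 55.7% to 57% in the other depleted mice. Control mouse 3 had Itga6 in 49.7% of thinned MkP, against 68.2% to 70.6%.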

How the results depend on the processing

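With the mouse as a replicate block, 5 members passed in MkP against HSC in place of 3, with Itgb3 and Itgb1 added, and Itgb1 and Itga4 were added to the 4 in CFU against MkP; the block changed no other call of a member. The adjusted p of Itgb3 in MkP against HSC was also under 0.05 in a fit of the 2 populations alone and on thinned cells, and those of Itgb1 and Itga4 in CFU against MkP in a fit of the 2 populations alone. Leaving out 1 mouse at a time gave 2 to 4 members in MkP against HSC, 6 to 6 in CFU against HSC, 4 to 6 in CFU against MkP and 0 to 0 in each treatment contrast and interaction. DESeq2 called 1 member, Itgb2, in depleted against control MkP. In CFU the treatment difference of Itgb1 changed sign without a filter on low counts (0.019) and in a fit of all 24 sums (0.056), and that of Itgb2 on thinned cells (-0.49). Leaving out 1 mouse at a time also changed signs of treatment differences that were far from the threshold, over ranges of -2.28 to 0.26 for Itgb3, -0.040 to 0.046 for Itgb1 and -0.26 to 0.52 for Itgb2 in CFU, and of -0.036 to 0.22 for Itga6 and -0.17 to 0.055 for Itga4 in MkP. The number of members whose detection did not overlap between treatments was 1 after thinning to 20000 counts (Itga2b in CFU) and 0 with at least 3 counts, in place of 2, so that Itga4 and Itgb2 in HSC overlapped under both. The number of pairs with a ratio over 1 in all 8 mice was 0 without thinning, in place of 4. For those of the 4 with Itga2b this was fixed in advance. Unthinned, Itga2b had a count in 100% of MkP in control mice 1 and 2 and depleted mouse 3. The same held for HSC of control mouse 4. Without TMM, median Itgb1 in CFU was 215 CPM in place of 256. The causes of the other changes were not tested. Precision was lowest where levels were low: in CFU, at medians of 3.68 and 0.0720 CPM, the 95% intervals of the treatment differences of Itga2b and Itgb3 ran from -1.93 to 0.31 and from -4.26 to 0.39.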
